A study of Mus musculus with 3 samples.

Results

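The 9 genes described here encode the transcription factors that mark or direct the helper T cell lineages: Tbx21, Eomes, Gata3, Maf, Rora, Bcl6, Prdm1, Foxp3 and Ikzf2. They were taken by name from the 31053 genes of the count tables, and all 9 had UMIs (unique molecular identifiers, each standing for 1 captured RNA molecule) in every library. Single-cell RNA was measured in 3 libraries of C57BL/6 mouse spleen T cells, enriched as naive CD4+ cells and sorted as 7AAD-CD3+CD4+. The unstimulated WT library came from Ift20 f/f mice and was kept in DPBS (0 h), the stimulated WT library came from the same genotype after 24 h of culture with antibodies to CD3 and CD28 (1 μg/mL of each), and the stimulated IFT20-KO library came from Ift20 f/f CD4 cre mice given the same antibodies. All groups carried the floxed Ift20 gene, and only the IFT20-KO group carried Cre, which is driven by Cd4 sequences and removes exons 2 and 3 of Ift20 from the double-positive thymocyte stage on, so also in CD8 T cells. The study used 5- to 10-week-old male mice, and the WT groups had no Cre control. There was 1 library per group, so no difference had a replicate check, and each interval given is a 95% interval of counting error only.

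Helper T cells take on effector programmes after activation, and each programme is tied to a leading transcription factor: T-bet (Tbx21) for Th1 cells, GATA3 for Th2, RORα (Rora) among those for Th17, BCL6 for follicular helper and FOXP3 for regulatory T cells. The others adjust these programmes: Eomesodermin (Eomes) is a T-box relative of T-bet, c-MAF (Maf) drives cytokine genes such as Il4 and Il21, Blimp-1 (Prdm1) and BCL6 repress each other, and Helios (Ikzf2) is carried by many thymus-derived regulatory T cells. In naive cells most of these genes are off or low, GATA3 being the exception, since it is needed for CD4 T cell development and upkeep.

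Tbx21 lies on chromosome 11 (chr11:97098071-97115331, minus strand, GRCm38, the build called mm10 in the labels) and Eomes on chromosome 9 (chr9:118478212-118486132, plus strand). Foxp3 lies on the X chromosome (chrX:7573644-7595245, plus strand), and all 9 are annotated as protein-coding genes under the same identifiers as in the count tables. Promoter windows of 250 bases before and 50 after a transcription start were held in RefSeq's table (GRCm38.p6) for 7 of the 9 genes. Maf and Ikzf2 had no entry. The windows of Tbx21 and Eomes, which moved together in both comparisons, and the upstream one of the pair of Foxp3 windows, a gene that moved the other way, are shown 5′ to 3′ on the gene's strand, with capitals at each GGAAA (the core bound by NFAT, a factor activated by T cell receptor signalling), on either strand, and none of them held the AP-1 motif TGANTCA.
Tbx21 (chr11:97115282-97115581, minus strand): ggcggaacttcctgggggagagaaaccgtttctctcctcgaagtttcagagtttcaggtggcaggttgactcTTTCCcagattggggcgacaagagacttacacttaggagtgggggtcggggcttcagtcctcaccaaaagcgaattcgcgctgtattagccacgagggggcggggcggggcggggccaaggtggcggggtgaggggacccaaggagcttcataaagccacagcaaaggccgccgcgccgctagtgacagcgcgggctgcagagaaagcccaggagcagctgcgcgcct
Eomes (chr9:118477939-118478238, plus strand): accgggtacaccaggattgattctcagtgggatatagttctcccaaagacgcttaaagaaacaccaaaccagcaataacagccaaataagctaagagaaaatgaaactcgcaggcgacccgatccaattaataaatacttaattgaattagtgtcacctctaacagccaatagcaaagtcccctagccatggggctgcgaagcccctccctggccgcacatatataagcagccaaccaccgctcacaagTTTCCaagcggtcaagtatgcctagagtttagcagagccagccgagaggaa
Foxp3 (chrX:7579426-7579725, plus strand): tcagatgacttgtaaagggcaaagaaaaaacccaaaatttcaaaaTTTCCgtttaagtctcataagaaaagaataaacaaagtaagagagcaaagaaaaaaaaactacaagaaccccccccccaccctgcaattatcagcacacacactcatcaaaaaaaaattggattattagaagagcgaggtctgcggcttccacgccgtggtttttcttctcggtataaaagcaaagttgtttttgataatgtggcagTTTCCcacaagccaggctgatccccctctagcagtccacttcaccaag
GGAAA was found 1 time in the Tbx21 window, 1 time in that of Eomes and 2 times in that of Foxp3. Of 32851 promoter windows of the same length, 61.3% held GGAAA, 7.81% TGANTCA, 3.98% the T-box motif TCACACC and 11.2% the GATA site AGATAA, each read on both strands (TGANTCA is its own reverse complement). Among the 9 windows of these genes, TGANTCA stood only in that of Prdm1, AGATAA only in the downstream Foxp3 window, and TCACACC in none. A match describes letters in the window, not a bound site.

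After filtering, 8031 cells remained in the unstimulated library, 9903 in the stimulated WT library and 13920 in the IFT20-KO library, with 37133949, 116979076 and 106435143 UMIs. The median cell held 4627, 12167 and 5014.5 UMIs, and 33.1%, 23.2% and 47.8% of cells had fewer than 4000, so depth differed between all groups. Ift20, the deleted gene, was read at 64.4, 76.0 and 6.60 CPM (UMIs per 1000000 UMIs of the library), 11.5-fold lower in IFT20-KO than in stimulated WT. T cell markers were present (97.1 to 99.4% of cells had UMIs of at least 2 of 8). All 5 erythroid and platelet markers were at 0 in both WT libraries. Myeloid markers stood at 80.7, 76.5 and 80.5 CPM, nearly all from Cst3, which was found in 29.1%, 53.3% and 39.7% of cells. B cell markers stood at 14.1, 43.9 and 45.8 CPM, nearly all from Cd74 after stimulation (22.8% of stimulated WT cells), NK markers at 0.0846 to 0.916 and Cd8a with Cd8b1 at 9.16 to 28.7, nearly all Cd8b1 (10.8% of unstimulated cells). Barcodes with at least 2 B cell markers numbered 6, 35 and 43 (median 5174, 14591 and 12580 UMIs), and 3, 10 and 9 of these carried Gata3 and 4, 2 and 2 Foxp3, genes B cells should lack, while 0, 1 and 0 carried Tbx21. For Gata3 and Foxp3 that is no lower a share than in the libraries as a whole, so these barcodes gave no level of free RNA. Between libraries, 114 to 197 barcode sequences were shared. The labels name a 5′ capture kit and the study's methods a 3′ kit, so the transcript end that was counted is not settled, and the number of mice behind each library is not given in the sources used here.

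Levels were taken as CPM, the UMIs of a gene per 1000000 UMIs of its library. A molecule is counted once at one end, so these levels do not scale with transcript length. In unstimulated WT cells Gata3 was the highest of the 9 at 58.7 CPM, followed by Foxp3 at 19.8, Ikzf2 at 13.9, Rora at 5.84, Maf at 4.20, Bcl6 at 2.42, Prdm1 at 2.40, Eomes at 1.72 and Tbx21 at 0.646. The intervals of Bcl6, Prdm1 and Eomes overlapped their neighbours, and all other steps in the order were apart. In stimulated WT cells the order was Gata3 (13.9), Tbx21 (13.2), Eomes (4.03), Foxp3 (3.12), Rora (2.04), Maf (1.74), Bcl6 (1.63), Ikzf2 (1.29) and Prdm1 (0.0598). Gata3 and Tbx21 could not be ranked there, nor could neighbours among Rora, Maf, Bcl6 and Ikzf2. In IFT20-KO cells Gata3 (10.1) stood first, then Foxp3 (4.69), Rora (3.04), Ikzf2 (2.26), Eomes (2.24), Bcl6 (1.98), Tbx21 (1.45), Maf (1.20) and Prdm1 (0.0470). Ikzf2, Eomes and Bcl6 overlapped as neighbours, as did Tbx21 and Maf. By point value alone, Tbx21 thus stood ninth, second and seventh in the 3 libraries, while Gata3 stood first in each.

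**Figure D1:**
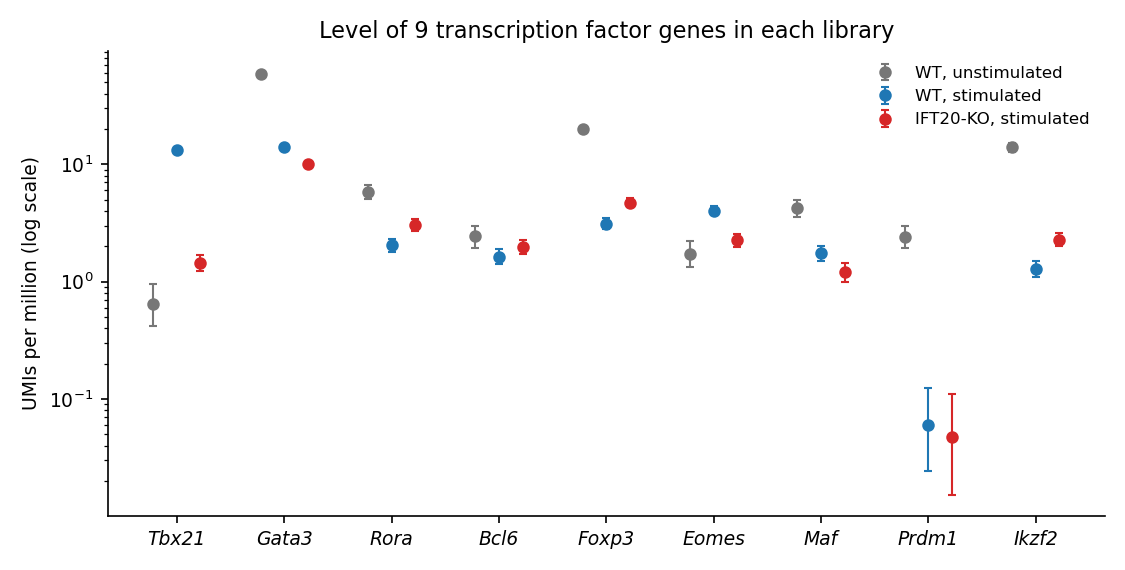
Level of each of the 9 genes in each library, as CPM on a log scale, with exact Poisson 95% intervals of counting error (1 library per group). Tbx21 goes from 0.646 to 13.2 and stands at 1.45 in IFT20-KO cells, whereas Gata3, Foxp3, Ikzf2 and Prdm1 are highest in the unstimulated library.

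The first comparison asks how the factors differed between unstimulated WT cells and WT cells stimulated for 24 h. The unstimulated cells were kept in DPBS at 0 h, so stimulation and 24 h of culture cannot be told apart. Tbx21 and Eomes were at least 2-fold higher in the stimulated library, and Prdm1, Ikzf2, Foxp3, Gata3, Rora and Maf were at least 2-fold lower, leaving Bcl6 within 2-fold. Of the 13297 genes that reached 10 UMIs in the pair of libraries, 19.3% were at least 2-fold higher and 23.0% at least 2-fold lower, against 2 and 6 of 9 here. The median log2 ratio was -1.52 over the 9 genes and -0.09 over all genes.

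Tbx21 gave 24 UMIs in 14 cells of the unstimulated library and 1549 UMIs in 890 cells of the stimulated WT library, and 154 UMIs in 131 IFT20-KO cells. The stimulated WT library alone was high, at 13.2 CPM (12.6 to 13.9) against 0.646 (0.414 to 0.962) before stimulation. The log2 ratio was 4.36 (3.78 to 5.00), a 20.5-fold difference, and 98.8% of genes had a lower ratio. With 1400 UMIs drawn per cell the Tbx21 ratio was 5.28, with 3 unstimulated cells behind it. Cells with at least 2 Tbx21 UMIs held 64.0% of its UMIs in that library, 1 cell reaching 15, so its signal was not spread as single molecules alone.

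Eomes gave 64 UMIs in 31 unstimulated cells, 472 in 257 stimulated WT cells and 238 in 172 IFT20-KO cells. Its level went from 1.72 (1.33 to 2.20) to 4.03 (3.68 to 4.42) CPM, a log2 ratio of 1.23 (0.85 to 1.63). The unstimulated level rested on few cells. One cell held 11 of the 64 UMIs, and 3 of the 14 cells with 16000 UMIs or more held 13 of them, so that bin stood at 47.0 CPM. Leaving out the 5% of cells with most UMIs in each library gave a log2 ratio of 1.95, and averaging each cell's fraction gave 2.06. Over all alternatives the Eomes ratio ran from 1.03 to 2.58, so the lowest lay close to the 2-fold limit.

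Gata3 was read at 2178 UMIs in 1782 unstimulated cells, 1621 in 1309 stimulated WT cells and 1071 in 975 IFT20-KO cells. Its level was high only before stimulation, 58.7 CPM against 13.9, a log2 ratio of -2.08 (-2.18 to -1.99). Foxp3 gave 737 UMIs in 343 cells, 365 in 176 and 499 in 318, in the same order of libraries. The unstimulated level of 19.8 CPM was 6.36-fold above the 3.12 of stimulated WT cells, at a log2 ratio of -2.67 (-2.85 to -2.49). Ikzf2 gave 518 UMIs in 263 cells, 151 in 115 and 241 in 185, and went from 13.9 to 1.29 CPM, a log2 ratio of -3.43 (-3.71 to -3.17). The Ikzf2 ratio was -2.04 with 1400 UMIs drawn per cell, from 135 and 43 UMIs.

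Prdm1 had 89 UMIs in 89 unstimulated cells, never more than 1 per cell, and 7 UMIs in 6 stimulated WT cells and 5 UMIs in 5 IFT20-KO cells. Its log2 ratio of -5.32 (-6.68 to -4.22) was the lowest of the 9, and 0.474% of genes were lower. With 1400 UMIs drawn per cell it was -2.61, with 14 UMIs before stimulation and none after it set to 3. Both stimulated libraries were near the limit of detection for this gene. Rora gave 217 UMIs before stimulation, 239 after it in WT and 324 after it in IFT20-KO, and Maf gave 156, 204 and 128. By CPM both were high in the unstimulated library, with log2 ratios of -1.52 (-1.79 to -1.24) for Rora and -1.27 (-1.58 to -0.96) for Maf. Bcl6, with 90, 191 and 211 UMIs, had a log2 ratio of -0.57 (-0.94 to -0.19).

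Stimulated WT cells gave more UMIs each, so a lower CPM is not always fewer molecules per cell. Per 1000 cells, UMIs of Gata3 went from 271 to 164, of Foxp3 from 91.8 to 36.9, of Ikzf2 from 64.5 to 15.2 and of Prdm1 from 11.1 to 0.707. These 4 genes were lower on both scales. Rora (27.0 to 24.1) and Maf (19.4 to 20.6) stood at like values per 1000 cells, and Bcl6 went from 11.2 to 19.3. Tbx21 (2.99 to 156) and Eomes (7.97 to 47.7) were higher on both scales. Whether stimulation changed RNA content or capture per cell was not tested.

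**Figure D2:**
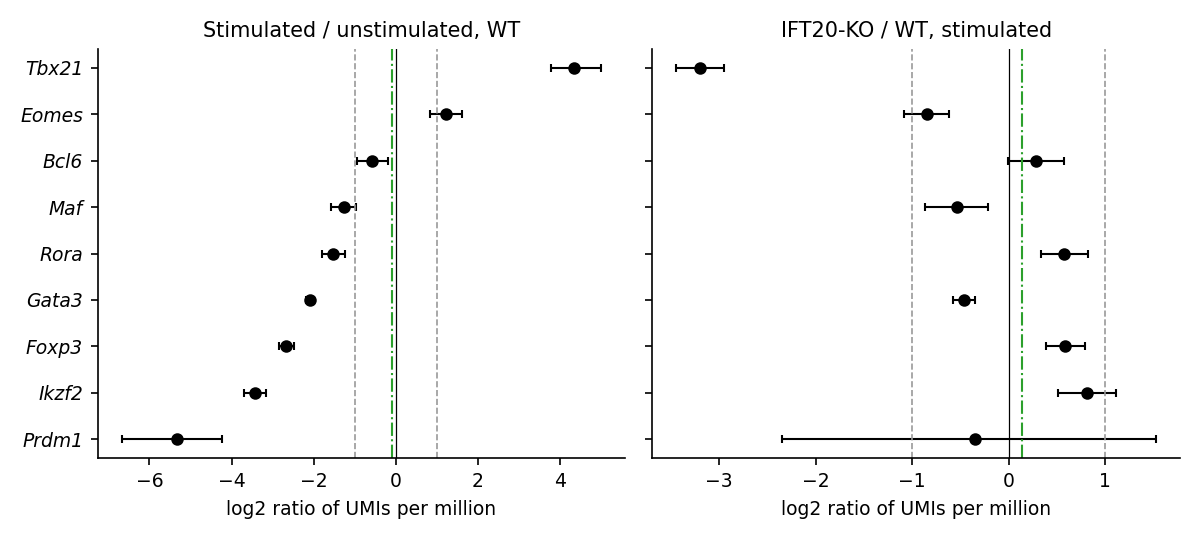
Log2 ratio of CPM for each gene, stimulated over unstimulated WT (left) and IFT20-KO over WT, both stimulated (right), with exact 95% intervals of counting error. Dashed lines mark 2-fold, dash-dotted lines the median of all genes (-0.09 and 0.14). Tbx21 lies at 4.36 on the left and at -3.19 on the right, the one gene past 2-fold there.

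The second comparison asks how loss of IFT20 changed the factors in stimulated cells. It shares the stimulated WT library with the first comparison, so a value particular to that library enters both. Tbx21 was the one gene of the 9 past 2-fold, on the low side. Of 13504 genes, 1.67% were at least 2-fold lower and 3.92% at least 2-fold higher. The median log2 ratio was -0.35 over the 9 genes and 0.14 over all genes. The -0.35 is the ratio of Prdm1 itself, from 7 and 5 UMIs (-2.35 to 1.52), so it gives no shift of the set. By counting error alone, 4 of the 9 (Tbx21, Eomes, Maf and Gata3) were lower in IFT20-KO, 3 (Rora, Foxp3 and Ikzf2) were higher, and the intervals of Bcl6 and Prdm1 held 0. The share of all genes with intervals that leave out 0 was not taken, so these counts are not a trait of the 9.

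For Tbx21, the 13.2 CPM of stimulated WT cells stood against 1.45 (1.23 to 1.69) in IFT20-KO, 9.15-fold lower, at a log2 ratio of -3.19 (-3.44 to -2.95). Only 0.111% of genes had a lower ratio. The IFT20-KO level stayed above the 0.646 of unstimulated WT cells, and 26.0% of its UMIs lay in cells with at least 2. For Eomes, 4.03 stood against 2.24 CPM, a log2 ratio of -0.85 (-1.08 to -0.62), with 2.14% of genes lower. Maf stood at 1.74 and 1.20, a log2 ratio of -0.54 (-0.87 to -0.21), and Gata3 at 13.9 and 10.1, a log2 ratio of -0.46 (-0.57 to -0.35). Rora (log2 ratio 0.58, 0.33 to 0.82), Foxp3 (0.59, 0.39 to 0.79) and Ikzf2 (0.81, 0.51 to 1.11) were higher, where the median gene was at 0.14. Bcl6 stood at 0.28 (-0.01 to 0.57) and Prdm1 at -0.35 (-2.35 to 1.52).

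IFT20-KO cells were shallower, and several of the genes were not spread evenly over depth. Cells were therefore compared in bins of depth, below 2000, 2000 to 4000, 4000 to 8000, 8000 to 16000, and 16000 UMIs or more. The shallowest barcode held 709 UMIs in stimulated WT and 1493 in IFT20-KO, so depth was not matched in the bin below 2000. Tbx21 was lower in IFT20-KO in 5 of 5 of these bins, with intervals apart in 4. At 16000 UMIs or more it stood at 13.8 CPM in 2592 WT cells and 1.64 in 1344 IFT20-KO cells. At 8000 to 16000 UMIs, Gata3 (14.1 and 10.3 CPM) and Eomes (4.14 and 1.99) were lower in IFT20-KO, as they were in all 5 bins, with intervals apart in 4 and 3. Maf was lower in IFT20-KO in 4 of 5 bins, with intervals apart in 1. At 2000 to 4000 UMIs it stood at 1.79 in WT and 2.39 in IFT20-KO. Rora was higher in IFT20-KO in all 5, but apart only at 8000 to 16000 UMIs (1.79 and 2.65). Foxp3 was higher in 4 of 5 bins, apart in 1 (4.26 and 9.23 at 4000 to 8000 UMIs), and stood at 2.51 and 2.53 at 16000 UMIs or more.

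The level of Ikzf2 varied with the depth of the cells. In stimulated WT cells it stood at 13.0 CPM below 2000 UMIs and 0.904 at 16000 or more, and in unstimulated cells at 107 below 2000, 20.4 at 2000 to 4000, 8.09 at 4000 to 8000, higher again at 8000 to 16000 (77 UMIs in 382 cells, interval from 15.8) and 14.4 above. The cells with 2000 to 4000 UMIs numbered 885 in stimulated WT and 5373 in IFT20-KO, and Ikzf2 stood at 8.04 and 8.86 in them. The intervals overlapped in every bin. In cells with at least 4000 UMIs its log2 ratio was 0.30, and it was 1.13 under a stricter filter (over 1000 genes, mitochondrial share below 10%). Its higher level in IFT20-KO cannot be told apart from the larger share of shallow cells in that library. Foxp3 and Rora also varied with depth in IFT20-KO cells. They stood at 12.1 and 5.81 CPM below 2000 UMIs, and at 2.53 and 2.35 at 16000 or more. The share of shallow cells thus enters their library ratios as well.

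**Figure D3:**
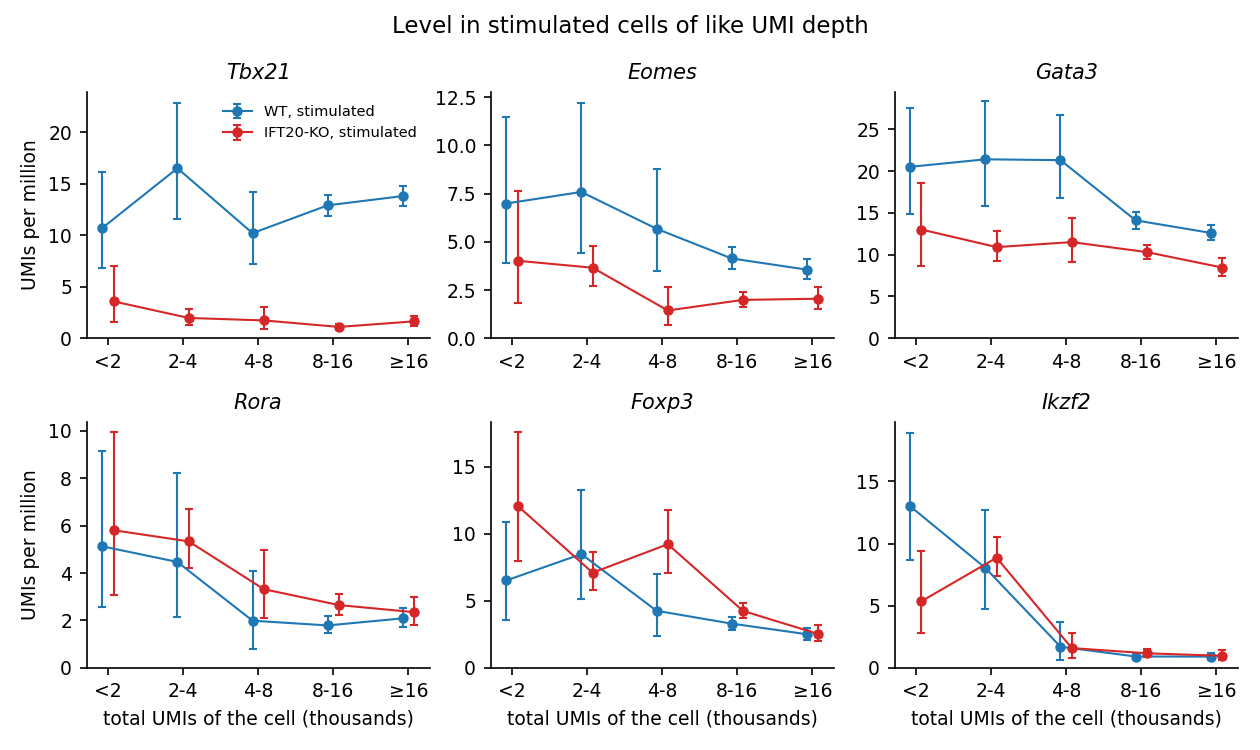
Level of 6 of the genes in stimulated WT and IFT20-KO cells, as CPM, in bins of the cell's total UMIs, with exact Poisson 95% intervals. Tbx21, Eomes and Gata3 are lower in IFT20-KO cells in all 5 bins, while Ikzf2 goes from 13.0 in the shallowest to 0.904 in the deepest WT cells.

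The share of cells with a UMI followed depth as well as level. Gata3 was found in 22.2% of unstimulated, 13.2% of stimulated WT and 7.00% of IFT20-KO cells, and Tbx21 in 0.174%, 8.99% and 0.941%. With 1400 UMIs drawn from each cell, which left out 801, 421 and 0 cells, Gata3 was found in 7.99%, 2.16% and 1.52% and Tbx21 in 0.0415%, 1.52% and 0.259%. The order of the libraries was kept for both genes. Foxp3 went from 4.27%, 1.78% and 2.28% to 1.99%, 0.506% and 0.733%. For Eomes the unthinned shares were 0.386%, 2.60% and 1.24%, and the thinned ones 0.194%, 0.538% and 0.395%, whose intervals in stimulated WT and IFT20-KO cells overlapped. Rora, Bcl6, Maf and Ikzf2 were each found in fewer than 4% of cells of every library. Prdm1 was found in 6 of 9903 stimulated WT cells (0.0606%) from all UMIs, and in 0 of 9482 at 1400 UMIs per cell, which allows a share of up to 0.0316% at that depth, taking 3 counts as the limit.

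**Figure D4:**
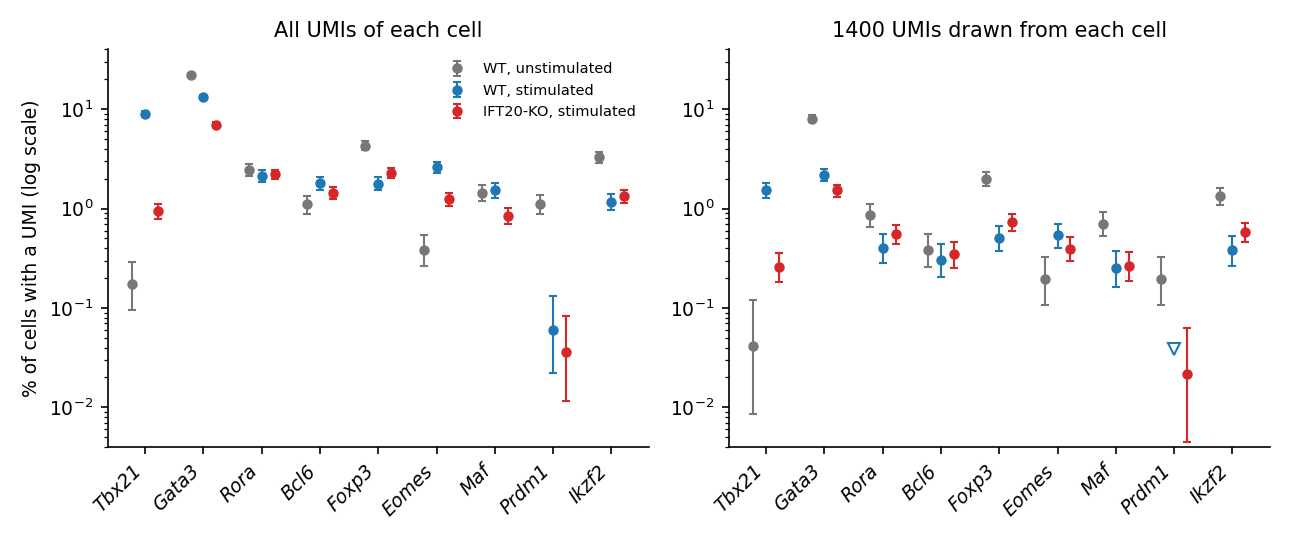
Share of cells with a UMI of each gene (percent, log scale), from all UMIs (left) and from 1400 UMIs drawn per cell (right), with exact Clopper-Pearson 95% intervals. The open triangle marks Prdm1 in stimulated WT cells, where no thinned cell held a UMI, at the upper bound of its two-sided Clopper-Pearson interval (0.0389%). Tbx21 is lower in IFT20-KO than in stimulated WT cells in both panels.

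Some of the factors were read in the same cells more often than depth alone gives. Expected numbers were taken within 10 bins of UMI depth, as a description. In unstimulated cells Foxp3 and Ikzf2 were found together in 127 cells against 12.8 expected, so 37.0% of cells with Foxp3 also had Ikzf2. The same pair was seen in 22 cells after stimulation in WT (6.90 to 16.7 times expectation by counting error) and in 20 against 4.07 expected in IFT20-KO. Foxp3 and Maf shared 21 unstimulated cells (5.32 expected), Maf and Ikzf2 18 (4.09), Rora and Ikzf2 21 (7.15), Rora and Foxp3 25 (9.29) and Rora and Maf 12 (3.02). In stimulated WT cells Foxp3 and Eomes shared 27 cells against 4.70 expected, and in IFT20-KO 12 against 4.20. Tbx21 and Eomes shared 43 cells against 27.9, while Tbx21 and Rora shared 12 against 24.2. Tbx21 and Gata3, the factors of Th1 and Th2 cells, were found together in 157 stimulated WT cells where 146 were expected (ratio 1.08, 0.917 to 1.26).

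The genes most over-represented in cells with a given factor were then listed, in the library where the factor was highest and against cells of like depth without it. Such cells hold several UMIs of a gene each, so the counting intervals of these ratios are too narrow and are left out. The intervals given above for genes such as Foxp3 are too narrow in the same way. Cells with at least 2 Foxp3 UMIs held 76.5% of its UMIs in the unstimulated library. In the 890 stimulated WT cells with Tbx21 the first 5 genes were Iigp1 (802 UMIs against 163 expected), Ly6c1 (681 against 158), Irf8 (2197 against 587), Fam26f (139 against 38.6) and Ly6a (11452 against 3207). Iigp1 is an interferon-inducible GTPase and Irf8 an interferon-responsive transcription factor. In the 131 IFT20-KO cells with Tbx21 the same genes were also above expectation, Iigp1 at 46 against 5.18, Irf8 at 118 against 30.6 and Ly6a at 500 against 54.6. All 5 were at least 2-fold lower in the IFT20-KO library as a whole: Ly6a, the gene of the surface protein Sca-1, went from 339 to 45.5 CPM, Irf8 from 56.7 to 21.4 and Iigp1 from 19.1 to 4.41. Over all genes 1.67% were. The 5 were picked within the stimulated WT library, by their UMIs in cells with Tbx21. Their being lower in the other library is therefore not separate support.

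For Foxp3 the first 5 genes in 343 unstimulated cells were Rln3 (157 UMIs against 3.55 expected), Lrrc32 (101 against 2.10), Il2ra (341 against 10.5), Ikzf2 (260 against 12.5) and Rgs1 (159 against 7.77). Lrrc32 encodes GARP and Il2ra the IL-2 receptor α chain, both surface proteins of regulatory T cells. Il2ra was found in 37.3% of cells with Foxp3 and 1.81% of those without. For Ikzf2 the 5 were Rln3, Lrrc32, Il2ra, Foxp3 and Rgs1, so 4 of the 5 were shared with Foxp3. After stimulation Lrrc32 kept apart in cells with Foxp3 (35 UMIs against 0.860 in WT, 25 against 2.24 in IFT20-KO), whereas Il2ra stood at 990 against 404 and Rgs1 at 328 against 525 in WT.

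Eomes gave a different set in 257 stimulated WT cells: Plaur (70 UMIs against 6.48), Foxp3 (68 against 8.18), Gadd45g (374 against 45.4), Lad1 (613 against 77.2) and 6430571L13Rik (47 against 6.21). In the 172 IFT20-KO cells with Eomes these 5 were above expectation too, Lad1 at 233 against 36.5. Maf, in 115 unstimulated cells, gave S100a6 (256 against 7.63), S100a4 (61 against 0.799), Nkg7 (43 against 1.59), Cxcr3 (40 against 1.85) and Ctla4 (54 against 4.21), among them a chemokine receptor of effector cells (Cxcr3) and an inhibitory receptor (Ctla4). One cell held 56 of the 256 S100a6 UMIs, and 28 of the 115 cells had any. Rora, in 196 cells, gave S100a6, Nrp1, Ctla4, Ikzf2 and Itgb1, at 3.59 to 10.9 times expectation, S100a6 being in 28 of these cells and at 27 UMIs in 1. NK markers gave 14 UMIs in the cells with Rora (0.592 expected), and both unstimulated barcodes with at least 2 NK markers carried Rora, and the part of NK cells in these values was not tested. Among the 5152 genes abundant enough to enter for Gata3, none was past 1.34 times expectation (Hps3) over 1782 cells. Below that abundance, Lrrc32 gave 66 UMIs against 26.0, and Gata3 shared 85 cells with Ikzf2 against 60.1. The ratios for Bcl6 and Prdm1 were at most 2.99 (Egr1) and 3.56 (S100a6) over 88 and 89 cells. Single cells held 21 of 65 Egr1 UMIs in cells with Bcl6 and 72 of 127 Hmgb2 UMIs in cells with Prdm1. Other genes of these sets were spread wider, Exoc7 being in 27 cells with Bcl6 against 12.3 expected and S100a6 in 9 cells with Prdm1 against 3.34.

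Observed over expected UMIs were also taken for lists of lineage genes. A list was not always highest in cells with its own factor. In unstimulated, stimulated WT and IFT20-KO cells, the Th17 list was 0.03, -0.05 and -0.12 with Rora on the log2 scale. The follicular helper list was 0.19, 0.18 and 0.06 with Bcl6. The regulatory list (15 genes) was 2.79 above expectation on the log2 scale in unstimulated cells with Foxp3, 2.87 with Ikzf2, 1.80 with Maf and 1.05 with Rora. It was 0.77 in stimulated WT cells with Foxp3 and 0.49 in IFT20-KO. Ctla4 (145 UMIs against 8.44 expected), Tnfrsf4 (387 against 24.4) and Gpr83 (139 against 11.6) were among its members in unstimulated cells with Foxp3. The Th1 list was 0.51 in stimulated WT cells with Tbx21, with 8 of 9 genes expected at 5 UMIs or more above expectation, and 0.42 in IFT20-KO cells with Tbx21. Within it, Ifng, the Th1 cytokine gene, gave 223 UMIs in cells with Tbx21 against 8.59 expected, but 1 cell of the library held 170 of its 347 UMIs. The Th1 list was not particular to cells with Tbx21. In stimulated WT it was 0.63 with Ikzf2 and 0.46 with Foxp3, but -0.07 with Eomes and -0.13 with Rora. In unstimulated cells it was 1.36 with Rora (0.63 in cells with at least 4000 UMIs), 1.15 with Maf and -0.38 with Bcl6. The 14 unstimulated cells with Tbx21 held 45 UMIs of Cxcr3 (0.294 expected), 77 of Ccl5 (0.617) and 21 of Ccr7 (64.1), the last a receptor of naive cells. One of these cells held 36 of the Ccl5 and 1 held 17 of the Ccr7 UMIs. NK markers gave 4 UMIs in these 14 cells (0.0824 expected) and G2/M genes 159 (19.1 expected), 81 of them Hmgb2 in 1 cell, and the part of either in these values was not tested.

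**Figure D5:**
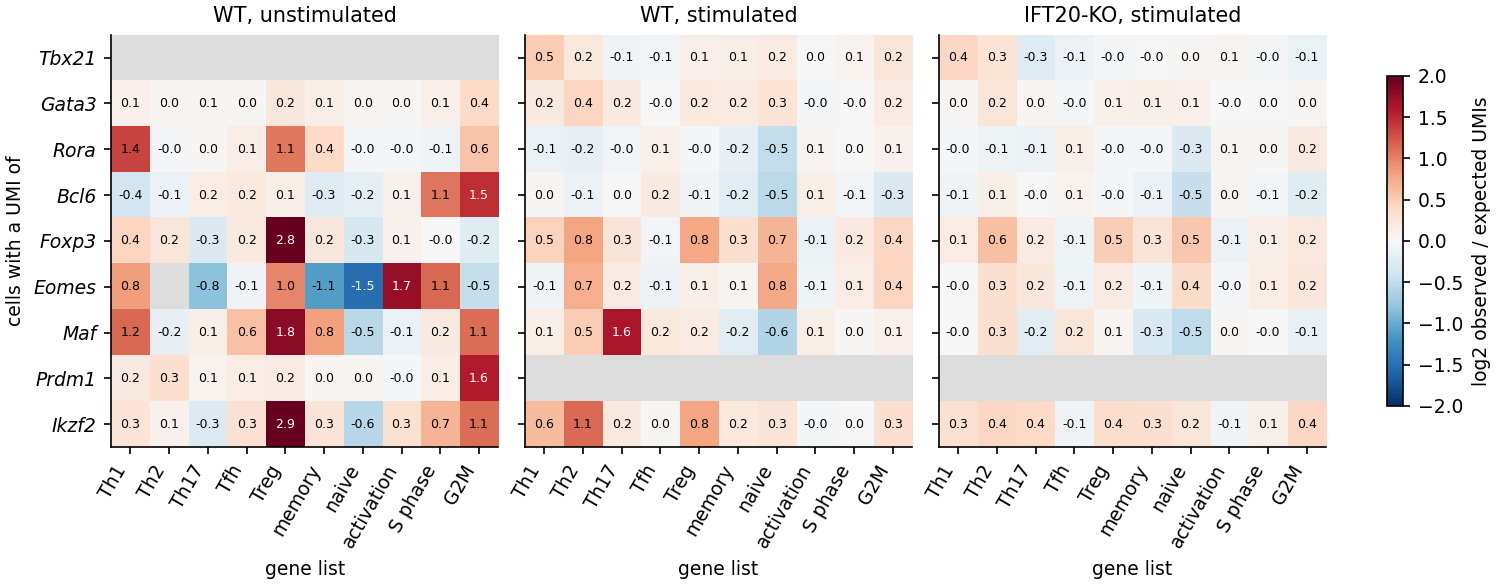
Log2 of observed over expected UMIs of each gene list (columns) in cells with a UMI of each factor (rows), in the 3 libraries, expected values coming from cells of like depth without the factor. Grey marks fewer than 30 cells or 30 expected UMIs. The regulatory list stands at 2.79 and 2.87 in unstimulated cells with Foxp3 and Ikzf2, and the Th17 value of 1.63 for Maf in stimulated WT rests on 1 cell with Ccl20 and 1 with Il17a.

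The Th2 list was 0.43 in stimulated WT cells with Gata3 (5 of 5 genes above expectation), 0.79 with Foxp3, 0.72 with Eomes and 1.14 with Ikzf2. Ccr8, a chemokine receptor, gave 205 UMIs against 67.7 with Gata3, 68 against 15.6 with Eomes and 52 against 6.07 with Ikzf2. The Th17 list was 1.63 with Maf in that library, but 1 cell held 101 of 102 Ccl20 UMIs and 1 cell all 37 Il17a UMIs of cells with Maf. Il4, a Th2 cytokine gene under c-MAF, gave 81 UMIs in cells with Maf, 80 of them in 1 cell. The naive list was below expectation in unstimulated cells with Eomes (-1.53, over 31 cells), Ikzf2 (-0.57), Maf (-0.55) and Foxp3 (-0.32). The same 31 cells with Eomes stood at 1.74 on a list of 12 activation genes (925 UMIs against 277 expected). Of the 7 of these genes expected at 5 UMIs or more, 4 were above expectation. On a list of S phase genes the cells with Eomes stood at 1.15, which was not particular to them. In the same library, cells with Bcl6 and Ikzf2 stood at 1.07 and 0.68 on it, and those with Rora and Foxp3 at -0.08 and -0.01. In stimulated WT cells the naive list was below with Maf (-0.60), Bcl6 (-0.54) and Rora (-0.49), and above with Foxp3 (0.68) and Eomes (0.75), with Ccr7 at 3623 UMIs against 1802 in the latter. Xcl1, a chemokine gene of activated T cells, gave 4 UMIs in cells with Eomes against 31.8 expected. Only 119 stimulated WT cells (1.20%) held Xcl1, and 1 cell held 179 of its 1031 UMIs. The expected value thus rests on few cells.

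The partners of these factors were taken from a list of 38 transcription factor genes, of which 37 reached 10 UMIs in each comparison. After stimulation 10 were at least 2-fold higher and 9 lower (median log2 ratio -0.03), where 19.3% and 23.0% of all genes were. Irf4, a factor induced by T cell receptor signalling, went from 1.75 to 115 CPM, Bhlhe40 from 0.458 to 30.3 and Zeb2 from 0.242 to 4.42. None of the 37 was past 2-fold in IFT20-KO (median 0.10), where 3.92% of all genes were higher and 1.67% lower. Among those with larger differences there were Zbtb32 (3.98 and 2.06) and Irf1 (117 and 69.7). Irf1 acts in interferon signalling and was also above expectation in IFT20-KO cells with Tbx21 (206 UMIs against 85.7).

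Counts past 2-fold in the lists that follow stand against shares over all genes. These were 19.3% higher and 23.0% lower after stimulation, and 3.92% higher and 1.67% lower in IFT20-KO. A count near them is not a trait of its list. Among genes tied to each programme, 3 of 11 Th1 genes with enough UMIs were at least 2-fold higher and 6 lower after stimulation (median -1.17). Among the higher were Il12rb1 and Il12rb2, the IL-12 receptor genes, from 1.43 to 52.6 and from 0.242 to 1.61 CPM. Among the lower was Il18r1, with the largest change of the list, from 28.7 to 0.470 CPM. In IFT20-KO, 2 of the 11 were at least 2-fold lower and none higher. Il12rb2 went from 1.61 to 0.601 (found in 1.66% and 0.453% of cells) and Ifng from 2.97 to 0.291, the latter in 36 and 14 cells. Of 6 Th2 genes, 4 were higher and 2 lower after stimulation. The 6 that reached 10 UMIs in the IFT20-KO comparison were not all the same genes. Of those, 1 was higher (Il13, with 2 UMIs in 1 WT cell and 8 in 1 IFT20-KO cell) and 1 lower (Il4, which went from 16 to 4 cells). Of 5 Th17 genes, 2 were higher and 3 lower after stimulation, and 1 was higher (Tgfbr1, 8.39 and 17.0) and 2 lower in IFT20-KO, Ccl20 among the latter with 103 UMIs in 3 WT cells and 0 in IFT20-KO cells. Follicular helper genes were 3 higher and 5 lower of 11 after stimulation, and none was past 2-fold in IFT20-KO. The regulatory list had 7 higher and 4 lower of 14 after stimulation, at a median of 1.08, where Foxp3 and Ikzf2 themselves were lower. Its members Il2ra (log2 ratio 3.62) and Tnfrsf4 (23.0 to 361 CPM) are also genes of activated T cells, while Lrrc32 went from 4.01 to 0.692. A slightly different 14 reached 10 UMIs in the IFT20-KO comparison. Of those, 1 was at least 2-fold lower (Il10, with only 9 and 2 UMIs) and none higher, and Ctla4 stood at 26.4 and 39.2.

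The wider state of the cells moved with stimulation as well, and its part in the changes of the factors was not tested. Of 9 naive genes 8 were at least 2-fold lower and none higher (median log2 ratio -3.30), and of 12 memory genes 6 were lower and 1 higher. Activation genes were higher in 10 of 12, S phase genes in 12 of 12 and G2/M genes in 9 of 12, with none lower. Over all genes 19.3% were higher and 23.0% lower, and in IFT20-KO 3.92% and 1.67%. In IFT20-KO 1 naive gene (Ly6c1, 19.5 and 2.52 CPM) and 1 memory gene (S100a6, 3.25 and 1.15) were at least 2-fold lower, 1 G2/M gene (Mki67, 8.91 and 21.6) was higher, and no activation or S phase gene was past 2-fold. Counting any difference, all 12 G2/M genes (median log2 ratio 0.37) and 11 of 12 S phase genes (0.21) had ratios above 0, and 9 of 12 activation genes below it (-0.22), among them Il2 (121 and 68.7 CPM). The median over all genes was 0.14 (quartiles -0.05 and 0.38), so most genes had ratios above 0 too. The G2/M and S phase medians lay within these quartiles.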

How the data were processed

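The values the authors deposited are counts: raw UMIs for each gene in each barcode, without normalization, for barcodes called by Cell Ranger (3.1.0 per the file headers; genome mm10 per the labels). The names of the 9 genes, and the gene lists, were chosen with earlier results of these data known. Kept barcodes had over 200 genes and a mitochondrial share below 15%, the study's own limits; no doublet caller was run and none were removed. UMIs were summed over kept cells and divided by the library's total, per 1000000 (CPM), so depth per cell sets detection. A gene entered a comparison if it reached 10 UMIs in the pair of libraries, and a gene at 0 was set to a floor of 3 UMIs. With 1 library per group no test was made. Intervals were exact Poisson (levels), exact binomial (ratios) and Clopper-Pearson (shares), and reads of 1 library are not replicates of a condition. Thinning drew 1400 UMIs per cell. Expected UMIs in cells with a factor came from cells without it in the same of 10 depth bins.

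All 9 genes are named. From each list, examples were drawn from up to 4 genes with the largest absolute log2 ratio among those reaching 100 UMIs in the pair. Il10 and Il13 fell below that limit and are named because a count past 2-fold rests on them. Genes most like a factor were the 5 highest by observed over expected UMIs (expected values under 3 set to 3) among genes with at least 30 UMIs, and at least 2 UMIs in 5% or a UMI in 10%, of cells with the factor, without receptor segments. Some genes that this rule drew are not reported here. Genes named within a list for cells with a factor were chosen after their values were seen, as were the single cells pointed out. Promoter sequences came from RefSeq and gene positions from GENCODE M21. Alternatives were other scalings (median-ratio, per cell, mean fraction), other cell filters and depths, and no minimum of UMIs. Python 3.11.15, numpy 2.4.6, scipy 1.17.1, pandas 2.3.3 and matplotlib 3.10.9 were used, and the steps were checked on simulated data. The simulated counts were drawn independently, so this check cannot tell how the intervals hold where UMIs of a gene cluster in cells.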

Additional observations from a re-analysis of the deposited data

How the results depend on the processing

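The count of genes past 2-fold after stimulation was 8 under every alternative run but 1. Removing the minimum of UMIs could change neither this count nor the one in IFT20-KO, since all 9 genes reached it. It is therefore no check of either. With UMIs per cell in place of CPM the count after stimulation was 5 (Gata3, Rora and Maf came within 2-fold), and the Maf ratio turned from -1.27 to 0.0847. That scaling put the median of all genes read in both libraries at 1.24, against -0.11. In IFT20-KO the count of 1 became 2 with median-ratio size factors (Tbx21 and Eomes, at -1.01), 4 with UMIs per cell (Tbx21, Gata3, Eomes and Maf; median of all genes -0.49) and 2 under the stricter filter of 1000 genes and 10% mitochondrial share (Tbx21 and Ikzf2, at 1.13), and it stayed 1 under the others. Tbx21 was past 2-fold under all of them, its log2 ratio running from -3.82 to -2.64 in IFT20-KO and from 4.32 to 5.71 after stimulation, the last from only 24 unstimulated UMIs. The Eomes ratio in IFT20-KO ran from -1.48 to -0.30, the latter in thinned cells with 52 and 62 UMIs. Rora, Bcl6 and Foxp3 changed sign in IFT20-KO with UMIs per cell, as did Bcl6 after stimulation, and Prdm1 in IFT20-KO ran from -0.98 to 0.65. With no minimum of UMIs, 32.1% of genes were at least 2-fold lower after stimulation and 6.99% in IFT20-KO. Of the log2 ratios under alternatives, 51 of 72 after stimulation and 56 of 71 in IFT20-KO stayed within the counting interval. Why values moved was not tested, beyond the scale each alternative sets. Prdm1 in IFT20-KO gave no ratio in thinned cells, since both counts were at or under 3. No paired analysis was possible because each group had 1 library. Depth limits Prdm1, Tbx21 before stimulation and all shares of cells.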
